A study of Mus musculus with 12 samples.

Results

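Duodenum of suckling mice lacking the transcription factor gene Onecut2 was compared with duodenum of wild type mice of the same age. The comparison used the 3 Onecut-2 knockout arrays and the 3 wild type arrays labelled postnatal day 15, which are 6 of the 12 arrays of the series, and it ran over 19938 genes. All mice were of strain 129, of mixed sex and untreated, and the knockout was the only allele named in the labels. Each array held total RNA of whole duodenal segments, described in the series design as coming from 5 to 8 mice. The other 6 arrays, 3 of each genotype at postnatal day 30, entered the estimate of the spread between arrays and served to set the day 15 effect beside that of weaned mice.

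ONECUT factors are DNA-binding proteins with one cut domain and a homeodomain, known from the development of liver, pancreas and gut. The duodenum receives pancreatic zymogens and activates them with enteropeptidase, a protease of its own brush border. In the suckling period its enterocytes live on milk, with high fatty acid oxidation, while Paneth cells are still accumulating at the base of the crypts. Fat absorption takes place mainly in the upper small intestine, whereas uptake of whole milk proteins by endocytosis is strongest further down.

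The 6 arrays were alike in scale, with medians between 7.23 and 7.25 on the log2 scale over all features. Pairs of arrays correlated at r = 0.9925 to 0.9953 within wild type, 0.9933 to 0.9951 within knockout and 0.9893 to 0.9926 between genotypes. In wild type, the enterocyte genes Lct, Fabp1 and Apoa4 averaged 12.94, 13.13 and 14.41, and the duodenal regulator Pdx1 averaged 9.96, against a median of 7.56 over all gene means. The labels call the replicates biological, and since each is a pool, the spread between arrays is that between pools and not between single mice. All values below are log2 expression values, differences are knockout minus wild type on that scale, and SDs are over n = 3 arrays.

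Calls at day 15 covered a small share of the genes, and with 3 arrays per genotype they do not bound how many changed. Of 19938 genes, 764 (3.83%) passed a limma adjusted p below 0.05. Of these, 360 (1.81% of genes tested) were higher in knockout and 404 (2.03%) were lower. Most of the calls were small, since 535 of the 764 (70%) had a difference under 0.5 and the median absolute difference was 0.38. Differences of at least 2-fold were present in 35 higher genes (0.176% of those tested) and 26 lower genes (0.13%) among the calls. Groups that did not overlap on any array were more common, with 1812 genes (9.09%) higher and 2434 (12.2%) lower. An unadjusted limma p below 0.05 was reached by 3034 genes. By chromosome, the share of called genes ran from 2.65% on chromosome 7 to 6.37% on chromosome 18, where 30 of 471 genes passed and where Onecut2 lies. Without 1 array at a time the number of calls was between 340, without knockout replicate 2, and 741, without knockout replicate 1. It was 505, 429 and 412 without wild type replicates 1, 2 and 3, and 445 without knockout replicate 3.

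**Figure D1:**
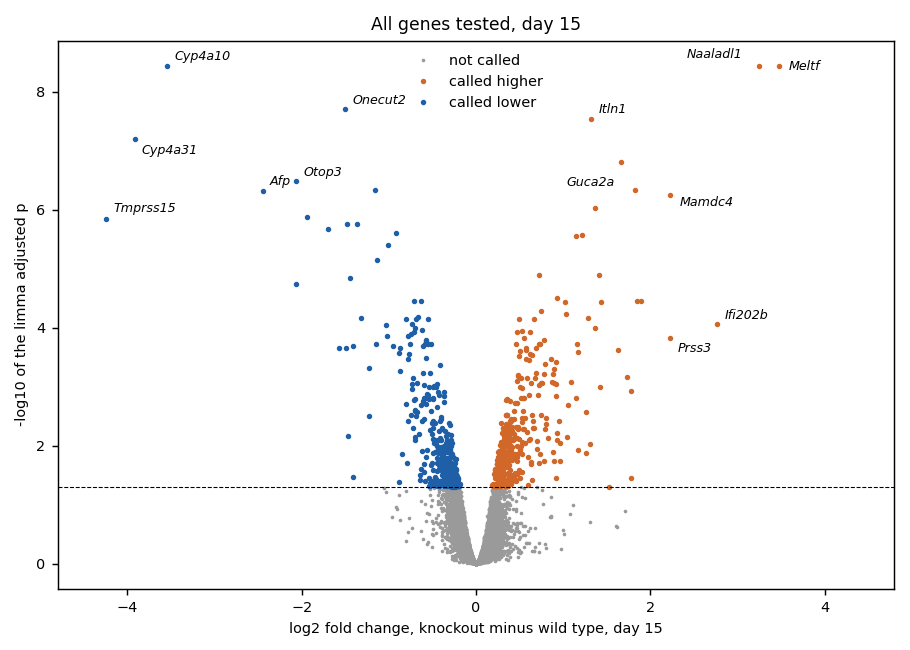
Each point is one of 19938 genes, placed by its log2 fold change at day 15 (knockout minus wild type) on the x axis and by -log10 of its limma adjusted p on the y axis, with the threshold of 0.05 dashed. The 360 higher calls are orange, the 404 lower calls blue, and most calls lie close to 0 while Tmprss15 at -4.25 and Meltf at 3.48 mark the ends.

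The targeted gene came first. Onecut2 read 9.55, 9.69 and 9.68 in wild type and 8.09, 8.13 and 8.20 in knockout. Each knockout array lay below each wild type array. The difference was -1.50 (SE 0.06, limma adjusted p = 2.0e-08). The position of its probes against the deletion is not used here, and the signal that was left is therefore no measure of transcript. The paralogs Onecut1 (-0.14, SE 0.08) and Onecut3 (-0.19, SE 0.13) did not pass, and both were dimmer than most genes, at wild type means of 6.20 and 7.22. Ada, which encodes adenosine deaminase and is driven by a well-studied duodenal enhancer, read 12.25, 12.51 and 11.97 in wild type and 12.12, 11.44 and 11.85 in knockout. The groups overlapped and the difference of -0.44 did not pass (SE 0.17, limma adjusted p = 0.22).

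The 20 largest rises and 20 largest falls were taken from calls whose groups did not overlap, so their separation follows from that choice. The largest fall was that of enteropeptidase, the enzyme that turns trypsinogen into trypsin. Its gene Tmprss15 (chromosome 16) read 10.31, 10.49 and 10.24 in wild type and 6.94, 5.59 and 5.77 in knockout. Knockout replicate 1 was the highest of its group and still far below every wild type array. The knockout mean of 6.10 lay below 6.20, the 25th percentile of all gene means, where array signal flattens and differences are understated. The difference was 19.0-fold (log2 -4.25, SE 0.27, limma adjusted p = 1.5e-06). It ran from -4.67 to -3.74 over all alternatives and passed in each.

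The fatty acid hydroxylase genes Cyp4a31 and Cyp4a10, neighbours of one P450 cluster on chromosome 4, followed. Cyp4a10 read 10.17, 10.43 and 10.35 in wild type and 7.01, 6.61 and 6.69 in knockout (-3.55, SE 0.11, limma adjusted p = 3.6e-09). Cyp4a31 read 9.32, 9.64 and 9.50 against 6.06, 5.11 and 5.54 (-3.92, SE 0.18, limma adjusted p = 6.5e-08). Neither gene overlapped between genotypes. These genes are close in sequence, so that probes for one may read the other, and their 2 values should not be taken as independent.

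The other large falls were in genes of varied function. Alpha-fetoprotein (Afp), a plasma protein of fetal liver and yolk sac, read 9.08, 9.30 and 8.99 in wild type and 6.54, 6.85 and 6.64 in knockout (-2.45, SE 0.14, limma adjusted p = 4.8e-07). The proton channel gene Otop3 read 10.13, 10.15 and 9.90 against 8.24, 7.82 and 7.92 (-2.07, SE 0.11, limma adjusted p = 3.3e-07). The bile salt export pump gene Abcb11 read 7.60, 7.71 and 7.68 against 5.56, 5.93 and 5.70 (-1.93, SE 0.12, limma adjusted p = 1.4e-06). None of these groups overlapped, and the knockout level of Abcb11 was again below the 25th percentile of gene means. The sulfotransferase gene Sult6b2 (-2.06), the calcium-binding protein gene S100b (-1.70), the complement gene C8b (-1.57) and the potassium channel gene Kcnt2 (-1.49) fell as well. So did the acetyltransferase gene Nat8f2 (-1.48), Cym, which encodes the milk-clotting protease chymosin (-1.45), Wdr72 (-1.36), the enkephalin precursor gene Penk (-1.32), the apolipoprotein gene Apoc1 (-1.23) and the water channel gene Aqp8 (-1.23). Tmed11 (-1.41) and the P450 genes Cyp3a16 (-1.47) and Cyp2c55 (-1.41) completed the 20 largest falls, whose SEs ran from 0.06 to 0.33. Cyp3a16 has close relatives that may share its probes. The call of Cyp2c55 was lost without wild type replicate 1 or 2 or knockout replicate 2 or 3, with a limma adjusted p of up to 0.16.

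On the other side, the largest rise was that of Meltf, a membrane-anchored relative of transferrin. It read 6.94, 6.75 and 6.94 in wild type and 10.26, 10.69 and 10.11 in knockout. The wild type arrays were below the median gene and the knockout mean was at percentile 92.2 of genes (3.48, SE 0.12, limma adjusted p = 3.7e-09). The aminopeptidase gene Naaladl1 read 6.37, 6.36 and 6.31 against 9.58, 9.39 and 9.81 (3.25, SE 0.11, limma adjusted p = 3.6e-09). Across all alternatives Meltf stayed between 3.25 and 3.60 and Naaladl1 between 3.14 and 3.43.

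The endocytic receptor gene Mamdc4, which is known for milk protein uptake in suckling enterocytes, read 8.16, 8.48 and 8.80 in wild type and 10.80, 10.79 and 10.54 in knockout (2.23, SE 0.13, limma adjusted p = 5.7e-07). The folate receptor gene Folr1 read 7.44, 7.72 and 8.10 against 9.50, 9.73 and 9.57 (1.84, SE 0.16, limma adjusted p = 3.5e-05). Guanylin (Guca2a), a peptide that stimulates chloride secretion, read 9.01, 9.23 and 9.06 against 10.76, 10.96 and 11.06 (1.83, SE 0.10, limma adjusted p = 4.6e-07). All 3 genes were separated between genotypes. Neurotensin (Nts), a hormone that is typical of the distal small intestine, read 5.05, 5.17 and 4.93 against 6.44, 7.05 and 7.31. Its wild type level was below the 25th percentile of genes, and it rose by 1.89 (SE 0.16, limma adjusted p = 3.5e-05).

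Other rises were those of 2 amine oxidase genes, Aoc1 for diamine oxidase (1.43) and Maoa for monoamine oxidase A (1.37), the lactate transporter gene Slc5a12 (1.63), Gml (1.73), the apolipoprotein L gene Apol10a (1.42) and Ppef1 (1.52). The trypsinogen gene Prss3 rose by 2.23 (SE 0.23, limma adjusted p = 1.5e-04), with values of 8.37, 8.60 and 8.77 in wild type and 10.88, 10.29 and 11.24 in knockout. Trypsinogen genes are near-identical in part, so its probes may read relatives. The interferon-inducible genes Ifi202b (2.77) and Ifi205 (1.77) and the Paneth cell genes Defa24, Pla2g2a, Mmp7, Itln1 and Ang4, described further on, made up the rest of the 20 largest rises, whose SEs ran from 0.05 to 0.42. The call of Ppef1 was lost without wild type replicate 1, 2 or 3 or knockout replicate 2 or 3, with a limma adjusted p of up to 0.22.

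**Figure D2:**
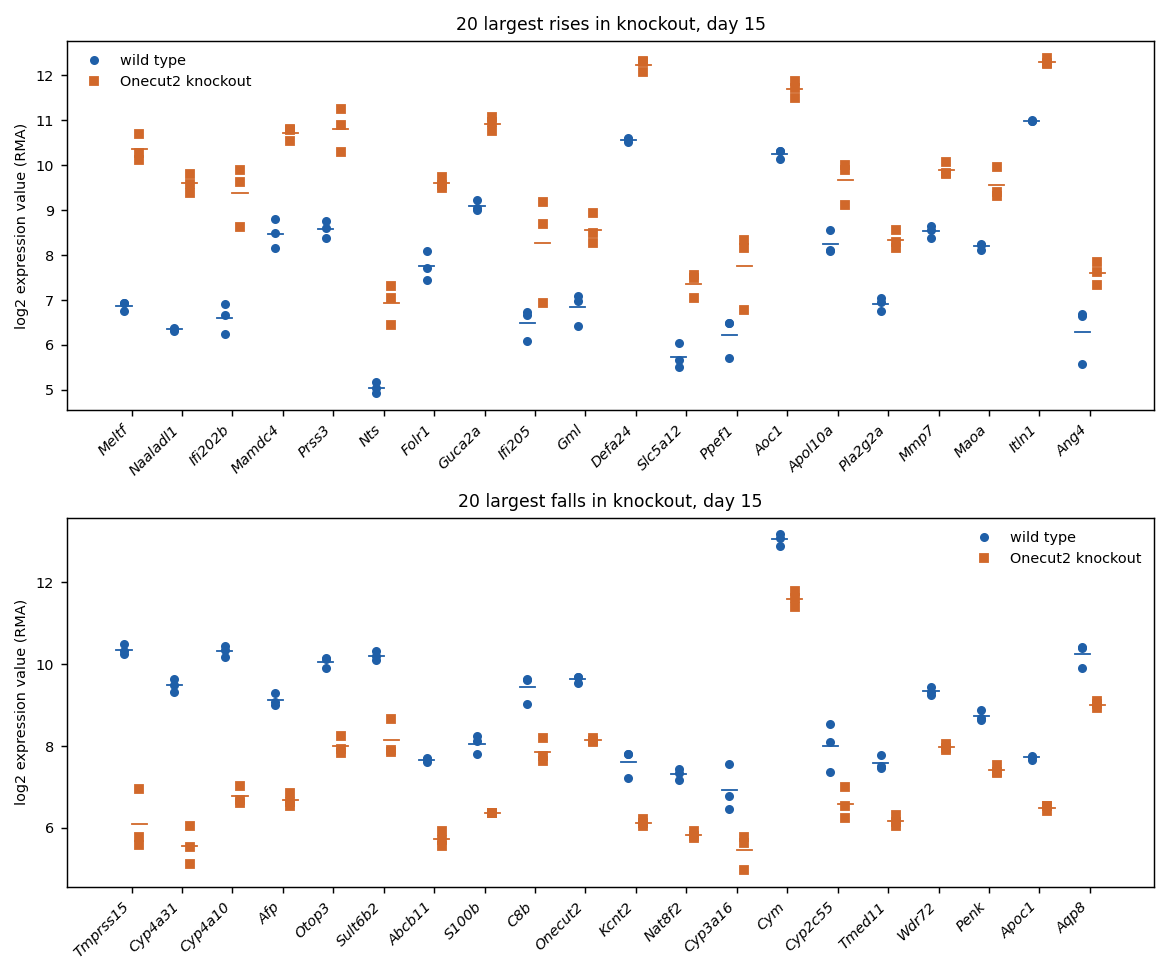
Log2 expression values of the 20 largest rises (upper plot) and 20 largest falls (lower plot) on each of the 6 day 15 arrays, wild type as blue circles, knockout as orange squares, with short lines for the group means. The genes were chosen without overlap between genotypes, and the spread among knockout arrays is widest for Ifi205, from 6.94 to 9.17, and next for Ppef1, from 6.77 to 8.34.

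ONECUT proteins are known to bind short sites with the core ATCAAT, and some also ATCGAT, so the promoters of these genes were searched for both. RefSeq promoters of assembly GRCm38.p6, each from 250 bases before to 50 bases after a gene's start, were found for 14 of the 20 largest rises and 13 of the 20 largest falls. Searched on both strands (ATCAAT reads ATTGAT on the other strand and ATCGAT reads the same on both), either core was present in 6.81% of the 15562 promoters of tested genes. It was present in 7.34% of 286 promoters of genes called higher and in 10.4% of 316 promoters of genes called lower. Among the largest changes it was present in 2 of the 14 rises (Prss3 and Mmp7) and in 3 of the 13 falls (Otop3, Cyp3a16 and Aqp8). The sequences of Otop3, Aqp8 and Prss3 are given because they hold a core, and that of Tmprss15 because it had the largest fall and holds none. They are on the strand of the gene, with the core in capitals: Otop3 at chr11:115334481-115334780 (plus strand), Aqp8 at chr7:123462044-123462343 (plus strand), Prss3 at chr6:41377564-41377863 (minus strand) and Tmprss15 at chr16:79091048-79091347 (minus strand).
Otop3: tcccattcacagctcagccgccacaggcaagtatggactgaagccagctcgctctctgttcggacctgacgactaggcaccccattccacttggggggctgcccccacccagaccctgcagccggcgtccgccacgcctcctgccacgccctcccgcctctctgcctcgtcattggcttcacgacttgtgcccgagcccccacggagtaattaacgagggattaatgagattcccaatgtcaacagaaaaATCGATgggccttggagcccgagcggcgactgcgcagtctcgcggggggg
Aqp8: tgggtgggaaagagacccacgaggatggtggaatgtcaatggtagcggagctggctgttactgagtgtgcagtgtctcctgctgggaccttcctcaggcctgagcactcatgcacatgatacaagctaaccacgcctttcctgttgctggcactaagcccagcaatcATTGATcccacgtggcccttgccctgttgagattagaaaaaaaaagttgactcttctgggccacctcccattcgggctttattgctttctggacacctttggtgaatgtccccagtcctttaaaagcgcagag
Prss3: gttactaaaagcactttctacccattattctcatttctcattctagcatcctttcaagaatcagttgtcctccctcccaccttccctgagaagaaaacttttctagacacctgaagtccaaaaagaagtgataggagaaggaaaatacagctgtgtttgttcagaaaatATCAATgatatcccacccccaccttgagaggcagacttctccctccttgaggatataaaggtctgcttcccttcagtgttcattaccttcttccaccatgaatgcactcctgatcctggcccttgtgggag
Tmprss15: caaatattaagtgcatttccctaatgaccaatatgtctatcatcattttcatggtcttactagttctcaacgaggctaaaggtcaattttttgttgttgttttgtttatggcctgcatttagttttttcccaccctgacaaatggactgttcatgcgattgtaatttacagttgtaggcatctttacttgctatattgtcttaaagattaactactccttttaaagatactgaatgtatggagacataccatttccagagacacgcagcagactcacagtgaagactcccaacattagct
In Otop3 the core began at base 1 after the start, in Aqp8 at base -83 and in Prss3 at base -81. A match only describes these letters, and the absence of one only says that they are not in this window.

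Transcripts of brush-border peptidases changed in both directions. Of 14 measured peptidase genes of the brush border, 6 were higher and 2 lower (background 1.81% and 2.03% of genes tested), with a median of 0.46 against -0.01 over all genes. These background shares apply to each list below. So do the shares of all genes without overlap between genotypes, 9.09% higher and 12.2% lower. Beside Naaladl1, the rises were those of aminopeptidase P (Xpnpep2, 0.92), aminopeptidase A (Enpep, 0.97), angiotensin-converting enzyme (Ace, 0.73), meprin beta (Mep1b, 0.58) and dipeptidyl peptidase 4 (Dpp4, 0.39). Xpnpep2 read 8.44, 8.35 and 8.37 in wild type and 9.37, 9.21 and 9.35 in knockout, and Ace read 10.62, 10.82 and 10.74 against 11.30, 11.52 and 11.56, both with no overlap. The other fall beside Tmprss15 was that of neprilysin (Mme), which read 12.37, 12.36 and 12.28 in wild type against 11.65, 11.51 and 11.52 in knockout (-0.78, SE 0.09, limma adjusted p = 3.4e-04). Of the 8 calls, 7 stayed whichever array was left out. The call of Enpep ended without knockout replicate 2 (limma adjusted p = 0.054).

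Of 17 amino acid and peptide transporter genes, 4 were higher and 0 lower (23.5% called, against 3.83% of all genes), with a median of 0.14. They were the amino acid transporter genes Slc7a15 (0.88, SE 0.11), Slc7a9 (0.40), Slc7a7 (0.28) and the taurine transporter gene Slc6a6 (0.27). Slc7a15 read 9.17, 8.90 and 8.66 in wild type and 9.84, 9.75 and 9.78 in knockout, without overlap. The calls of Slc7a7 and Slc6a6 were lost in 4 and 5 of the 6 fits that left out an array. With the mean of the smooth muscle list in the model, 0 of the 4 calls were left (limma adjusted p 0.13 to 0.30), while Slc7a15 was at 0.75 and Slc7a9 at 0.43. In the list of 11 disaccharidase and sugar transport genes, sucrase-isomaltase (Sis, 0.66) and the glucose transporter gene Slc5a1 (0.25) rose and the fructose transporter gene Slc2a5 (-0.42) fell. Sis read 12.08, 11.83 and 11.57 against 12.64, 12.31 and 12.51. Lactase (Lct, 0.22, limma adjusted p = 0.55) did not pass. Slc5a1 and Slc2a5 lost their calls in 3 and 4 of the 6 leave-out fits, with limma adjusted p of up to 0.083 and 0.22.

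Fatty acid oxidation and ketogenesis had more falls than rises. Of 24 measured members 9 fell and 1 rose (41.7% called, against 3.83% of all genes), 23 lay below 0, and the median was -0.25. The largest fall was that of medium-chain acyl-CoA dehydrogenase (Acadm), which read 11.68, 11.69 and 11.80 in wild type and 10.86, 10.64 and 10.64 in knockout (-1.01, SE 0.07, limma adjusted p = 4.0e-06). The peroxisomal enzyme gene Ehhadh (-0.72), the ketone body enzyme gene Bdh1 (-0.61), Acaa2 (-0.52), Eci1 (-0.39), Decr1 (-0.37), Hadhb (-0.30), Acadvl (-0.29) and Crat (-0.28) also fell. Each of these 9 separated the genotypes completely, as 12.2% of all genes did in that direction. The transporter gene Cpt1a (-0.18), the trifunctional protein gene Hadha (-0.19) and the regulator gene Ppara (-0.10) did not pass. The 1 rise was that of Vnn1, a pantetheinase with no step in oxidation itself (1.09, SE 0.14, limma adjusted p = 8.4e-04). Of the 10 calls, 7 stayed whichever array was left out, and Acadvl, Crat and Hadhb did not. With the smooth muscle mean in the model 2 calls were left and the median was -0.17.

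The P450 family 4 beyond Cyp4a10 and Cyp4a31 was mixed. Of 14 measured members 4 were lower and 1 higher, with a median of -0.09. Cyp4b1 (-0.64) and Cyp4f15 (-0.60) fell, while Cyp4f14 rose from 8.93, 8.85 and 9.08 in wild type to 10.17, 9.81 and 9.96 in knockout (1.03, SE 0.09, limma adjusted p = 3.7e-05). The calls of Cyp4b1 and Cyp4f15 were each lost in 4 or 5 of the 6 leave-out fits, with limma adjusted p of up to 0.17 and 0.097.

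Of 22 measured fat absorption genes 3 passed (13.6%, against 3.83% of all genes). Among them 2 rose and 1 fell, and the list median was 0.04. The fatty acid receptor gene Cd36 read 10.44, 10.78 and 10.69 in wild type and 11.25, 11.37 and 11.35 in knockout (0.68, SE 0.09), and the sterol transporter gene Npc1l1 rose by 0.44 (SE 0.07). Angptl4, a lipase inhibitor, fell by 0.60, a call that was lost in 4 of the 6 leave-out fits. The chylomicron genes Apob (-0.01), Mttp (0.01) and Apoa4 (0.05) and the fatty acid-binding protein gene Fabp1 (0.10) did not pass. In cholesterol synthesis, 4 of 20 genes rose and 0 fell (20% called, against 3.83% of all genes, median 0.17). They were Idi1 (0.44), Msmo1 (0.41), Sqle (0.40) and Sc5d (0.34), all without overlap, as were 9.09% of all genes in that direction. Hmgcs1 (0.24) and Cyp51 (0.32) did not pass. With the smooth muscle mean in the model 0 of these 4 calls were left (limma adjusted p 0.10 to 0.25), at differences of 0.47, 0.40, 0.55 and 0.36 in the same order. The call of Sqle was lost in 4 leave-out fits. Of 11 genes of bile acid transport, Abcb11 was the 1 that passed, and the ileal signal Fgf15 (0.12), the receptor gene Nr1h4 (-0.05) and the basolateral transporter genes Slc51a (0.08) and Slc51b (0.08) did not.

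Of 11 measured genes of the endocytic uptake of the suckling enterocyte, 6 rose, 0 fell and 5 did not pass (54.5% called, against 3.83% of all genes), with a median of 0.34. Beside Mamdc4 and Folr1 these were the adaptor gene Dab2 (0.91), Pllp (0.37), the chloride transporter gene Clcn5 (0.34) and the recycling GTPase gene Rab11a (0.33). Dab2 read 9.87, 10.25 and 10.36 in wild type and 10.98, 11.18 and 11.05 in knockout (SE 0.12, limma adjusted p = 8.9e-04). The receptor complex genes Cubn (0.26), Amn (0.38) and Lrp2 (-0.05), the cobalamin carrier gene Tcn2 (-0.03) and the immunoglobulin receptor gene Pigr (-0.13) did not pass. The list mean lay between 9.59 and 9.73 on the wild type arrays and between 10.23 and 10.27 on the knockout arrays. The calls of Mamdc4, Folr1 and Dab2 stayed whichever array was left out, and those of Pllp, Clcn5 and Rab11a did not. The rise of Dab2 depended on the feature chosen. With the lowest-mean feature of each gene in place of the brightest, Dab2 was at 0.04 (limma adjusted p = 0.89).

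Of 29 lysosomal hydrolase genes, 9 rose, 0 fell and 20 did not pass (31% called, against 3.83% of all genes), with 9 below 0 and a median of 0.11. The asparagine endopeptidase gene Lgmn read 11.21, 11.34 and 11.30 in wild type and 11.76, 12.25 and 12.12 in knockout (0.76, SE 0.10, limma adjusted p = 8.7e-04). Beta-glucuronidase (Gusb) read 9.22, 9.30 and 9.27 against 9.79, 9.92 and 9.94 (0.62, SE 0.06, limma adjusted p = 1.2e-04). The other rises were those of the beta-galactosidase gene Glb1 (0.56), the cathepsin genes Ctsl (0.52) and Ctss (0.34), Galns (0.46), Hexa (0.40), Neu1 (0.40) and Fuca1 (0.35). Calls of 5 of the 9 stayed whichever array was left out, and those of Ctsl, Ctss, Neu1 and Fuca1 did not. With the smooth muscle mean in the model 1 of the 9 calls was left, and with the stomach and Brunner gland mean 3. The 8 differences whose calls ended with the muscle mean were at 95.2% to 131% of their log2 size without it.

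In the guanylin pathway the ligands rose and the receptor did not pass. Beside Guca2a, uroguanylin (Guca2b) averaged 11.97 ± 0.03 in wild type and 12.38 ± 0.04 in knockout, without overlap (0.41, SE 0.08, limma adjusted p = 0.010). The receptor guanylate cyclase gene Gucy2c was at 0.08 (limma adjusted p = 0.57) and the chloride channel gene Cftr at -0.08 (limma adjusted p = 0.65). Carbonic anhydrase 2 (Car2), which supplies bicarbonate, fell from 10.76, 10.63 and 10.74 to 10.27, 9.79 and 9.72 (-0.79, SE 0.13, limma adjusted p = 0.0038). Of the 15 genes of guanylin signalling and ion secretion these were the 2 higher and the 1 lower, with a median of -0.08. With the smooth muscle mean in the model 1 of the 3 calls was left, that of Guca2a, and likewise with the stomach and Brunner gland mean. The limma adjusted p was then 0.33 and 0.13 for Guca2b and 0.26 and 0.078 for Car2.

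Genes of mineral and anion transport held single changes. Of 15 calcium and iron genes, Meltf and the ferroxidase gene Heph (0.25) rose and the calcium pump gene Atp2b1 (-0.26) fell. The calcium-binding protein gene S100g was at -0.40 and did not pass. Of 11 genes of phosphate, sulfate and citrate transport, the phosphate transporter gene Slc34a2 (0.82, SE 0.15) and the sulfate transporter gene Slc26a2 (0.53, SE 0.07) rose, the sulfate transporter gene Slc13a1 fell (-0.89, SE 0.22), and the citrate transporter gene Slc13a2 was at 0.37. Slc34a2 read 11.26, 11.51 and 11.59 in wild type and 12.18, 12.31 and 12.35 in knockout. Its call ended with the smooth muscle mean in the model (limma adjusted p = 0.23) and with the stomach and Brunner gland mean (limma adjusted p = 0.14). Heph, Atp2b1 and Slc13a1 lost their calls in 4 or 5 of the 6 leave-out fits. In the list of 11 gluconeogenesis and urea cycle genes, Otc (0.37) and Prodh (0.23) rose, and in that of 8 gasdermin genes, Gsdmc4 (0.95) and Gsdmc2 (0.89), near-identical members of one cluster, rose. Otc, Prodh and Gsdmc2 lost their calls in 4 to 6 of the leave-out fits.

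The list of drug and steroid metabolism had 33 measured genes, 7 lower and 1 higher (24.2% called, against 3.83% of all genes), with a median of -0.03. After Sult6b2 and Cyp2c55 the falls were those of Cyp2d26 (-0.75), the carboxylesterase gene Ces2g (-0.70), Cyp2c65 (-0.58), Gstm1 (-0.45) and Ces1d (-0.42). Cyp2d26 read 12.20, 12.14 and 12.08 in wild type against 11.68, 11.18 and 11.34 in knockout. The export pump gene Abcg2 rose by 0.25, and Ces2a, at -0.26, did not pass. Calls of 3 of the 8 stayed whichever array was left out (Sult6b2, Cyp2d26 and Ces2g). In retinoid handling, 3 of 12 genes fell and 0 rose, namely the retinol dehydrogenase gene Rdh7 (-0.95, SE 0.11), Retsat (-0.48) and Aldh1a2 (-0.33). Rdh7 read 7.52, 7.51 and 7.43 against 6.73, 6.51 and 6.36, and the calls of Retsat and Aldh1a2 were lost in 5 leave-out fits each. Among 12 purine salvage genes, Ada included, 0 passed in the limma fit (3 lower at an unadjusted p below 0.05).

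**Figure D3:**
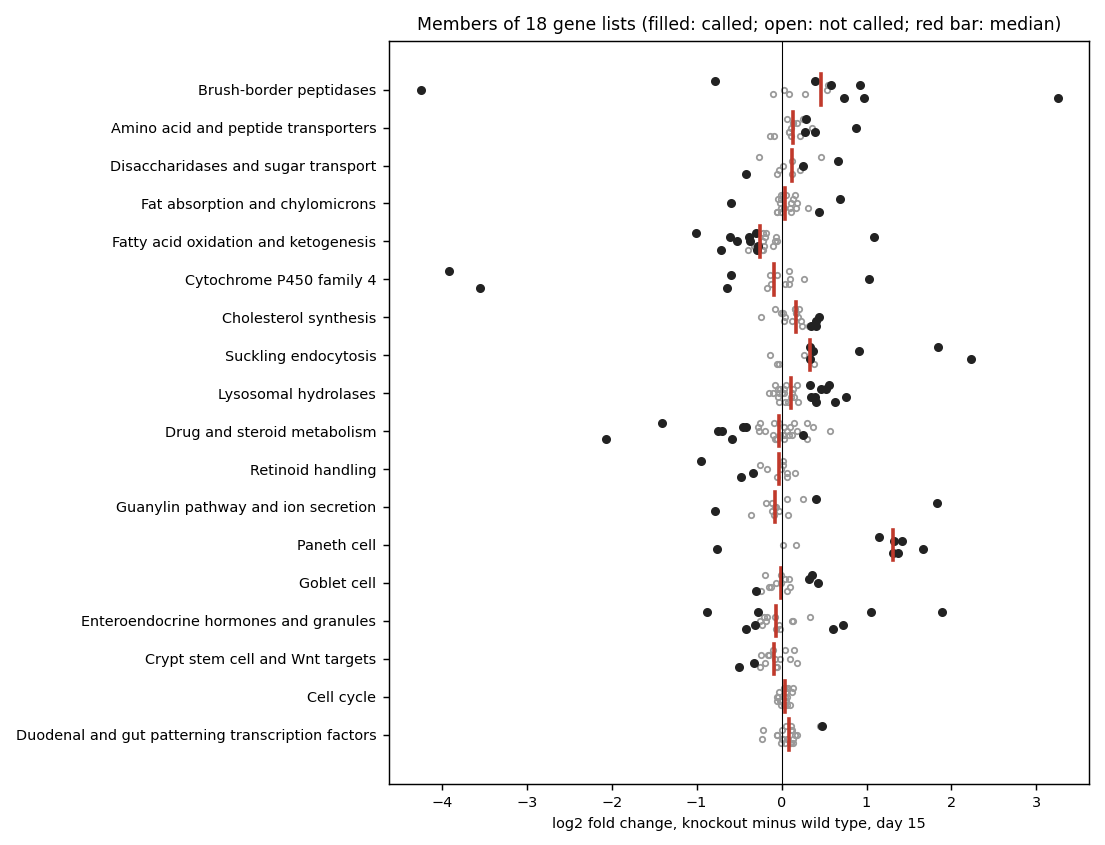
Log2 fold change at day 15 (x axis) of each measured member of 18 gene lists (rows), filled where called, open where not, with the list median as a red bar. The Paneth cell list has the median farthest from 0 among those shown, at 1.31, and fatty acid oxidation has 23 of 24 members below 0.

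Paneth cells secrete antimicrobial proteins from the crypt base. Of 9 measured genes in their list of 20, 6 rose and 1 fell (77.8% called, against 3.83% of all genes). Nupr1 (0.17) and Habp2 (0.02) did not pass. Lysozyme (Lyz1) read 12.73, 12.74 and 12.45 in wild type and 13.74, 13.74 and 13.88 in knockout (1.15, SE 0.08, limma adjusted p = 2.7e-06). Intelectin (Itln1) read 10.97 to 10.997 on the wild type arrays against 12.28, 12.24 and 12.40 (1.32, SE 0.05, limma adjusted p = 2.9e-08). Matrilysin (Mmp7), which processes defensins, read 8.38, 8.56 and 8.64 against 9.80, 9.83 and 10.06 (1.37, SE 0.08, limma adjusted p = 9.2e-07). In each of them all knockout arrays were above all wild type arrays, as for 9.09% of all genes. For Itln1 and Mmp7, which are among the 20 largest rises, this follows from how those rises were chosen. The defensin gene Defa24 (1.67), the phospholipase gene Pla2g2a (1.41) and the angiogenin gene Ang4 (1.31) rose as well. Defa24 and Itln1 have near-identical relatives that their probes may read. The member that fell was the pentraxin gene Mptx1, from 7.94, 7.98 and 7.90 to 7.09, 7.18 and 7.28 (-0.76, SE 0.08, limma adjusted p = 1.9e-04). All 7 calls stayed whichever array was left out. In RNA of a whole segment, more cells of a type cannot be told apart from more RNA per cell, here and in all lists of cell types.

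Beside these values at day 15, wild type duodenum at day 30 had means of 13.97 for Lyz1, 12.08 for Itln1, 10.09 for Mmp7, 12.08 for Defa24, 8.09 for Pla2g2a and 7.66 for Ang4. The knockout means at day 15 were 13.79, 12.31, 9.90, 12.23, 8.33 and 7.61 in the same order. For these 6 genes, the members that rose, both means were within 0.25 of each other, as they were for 76.4% of all genes. Wild type means at day 15 and day 30 were that close for 75.3% of all genes. The widest gap among the 6, that of Pla2g2a at 0.24, lay just inside the limit. Of the other 3 members, Mptx1 was at 7.18 in knockout at day 15 against 8.01 in wild type at day 30, Nupr1 at 8.83 against 9.37 and Habp2 at 9.45 against 9.42. This is a description that was not tested.

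Among gut hormones, some rose and some fell. Of 20 hormone and granule genes, 4 were higher and 4 lower (40% called, against 3.83% of all genes), with a median of -0.07. Beside Nts, the incretin gene Gip read 11.01, 10.93 and 10.88 in wild type and 11.67, 11.67 and 11.63 in knockout (0.72, SE 0.06, limma adjusted p = 1.3e-05). Cholecystokinin (Cck), which drives pancreatic secretion, read 9.36, 9.43 and 9.43 against 9.96, 9.97 and 10.13 (0.61, SE 0.07, limma adjusted p = 3.5e-04). Glucagon (Gcg), the precursor of the GLP peptides, read 8.68, 8.81 and 8.38 against 9.40, 9.58 and 10.04 (1.05, SE 0.16, limma adjusted p = 0.0021). None of the 3 overlapped, as was so for 9.09% of all genes in that direction. The serotonin synthesis gene Tph1 fell from 8.77, 8.83 and 8.89 to 7.90, 8.00 and 7.94 (-0.88, SE 0.10, limma adjusted p = 2.7e-04). It did not overlap either, as was so for 12.2% of all genes in that direction. Ghrelin (Ghrl, -0.42), secretin (Sct, -0.31) and the granule gene Scg3 (-0.28) fell, and each of these 3 calls was lost in 5 or 6 of the leave-out fits. The granule marker Chga (-0.23) and somatostatin (Sst, 0.12) did not pass. Of 10 transcription factors of enteroendocrine cells, Neurod1 fell (-0.40), a call lost in 6 of 6 leave-out fits (limma adjusted p 0.060 to 0.17), and Neurog3 was at -0.05.

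Of 15 goblet cell genes 4 passed (26.7%, against 3.83% of all genes). The mucin gene Muc2 (0.33), Spink4 (0.42) and Ccl6 (0.36) rose and Agr2 (-0.31) fell, with a median of -0.01. Muc2 and Ccl6 lost their calls in 3 and 5 leave-out fits, and 0 of the 4 were called with the smooth muscle mean in the model (limma adjusted p 0.11 to 0.26). Of 10 tuft cell genes, Il17rb fell (-0.22, lost in 6 leave-out fits), and the tuft regulator gene Pou2f3 was at -0.19. In the list of 16 crypt stem cell and Wnt target genes, the stem cell receptor gene Lgr5 read 8.36, 8.52 and 8.54 in wild type and 8.14, 7.84 and 7.93 in knockout (-0.50, SE 0.09, limma adjusted p = 0.0063), and Rnf43 fell by 0.33, a call lost in 4 leave-out fits. Olfm4, another marker of these crypts, was at 0.14 and did not pass. The call of Lgr5 ended with the smooth muscle mean in the model (limma adjusted p = 0.34) and with the stomach and Brunner gland mean (limma adjusted p = 0.093). Of 23 cell cycle genes 0 passed in the limma fit, 0 also at an unadjusted p below 0.05, with members between -0.06 and 0.14 and a median of 0.04.

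The regulators of gut identity held 1 call. Of 22 patterning transcription factors, Klf4, a factor of goblet and villus cells, was the 1 that passed (0.47, SE 0.08, limma adjusted p = 0.0075), with values of 9.67, 9.84 and 9.97 in wild type against 10.30, 10.24 and 10.35 in knockout. The call of Klf4 stayed whichever array was left out and ended with the smooth muscle mean in the model (0.54, limma adjusted p = 0.16) and with the stomach and Brunner gland mean (0.40, limma adjusted p = 0.14). The duodenal factor Pdx1 was at -0.22 (SE 0.07, limma adjusted p = 0.13), Gata4 at -0.05, Cdx2 at 0.13 and the neonatal repressor Prdm1 at 0.46 (limma adjusted p = 0.12).

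Interferon genes varied widely within each genotype. All 18 measured interferon-stimulated genes lay above 0, with a median of 0.36, which was -0.30 with the stomach mean as a covariate, and 0 passed in the limma fit (2 higher at an unadjusted p below 0.05). Their mean was 9.38, 9.98 and 10.28 on the wild type arrays and 9.38, 10.89 and 10.82 on the knockout arrays. Replicate 1 was the lowest array of both genotypes, and the groups overlapped. Mx1 read 6.09, 7.16 and 7.47 against 6.89, 9.72 and 9.24 (1.71, SE 0.55, limma adjusted p = 0.13), Cxcl10 was at 0.97 and Ifit2 at 0.66. The p200 family of interferon-inducible DNA sensors had 2 of 4 members higher. Ifi202b read 6.25, 6.67 and 6.90 in wild type and 8.62, 9.90 and 9.62 in knockout, apart on all arrays (2.77, SE 0.27, limma adjusted p = 8.8e-05). Ifi205 read 6.10, 6.66 and 6.73 against 6.94, 9.17 and 8.69 (1.77, SE 0.42, limma adjusted p = 0.036), a call lost in 5 of the 6 leave-out fits, kept without knockout replicate 1. In both of them replicate 1 was again the lowest of each genotype, and the part of the interferon level in these rises was not tested.

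Of 16 antimicrobial and microbe-induced epithelial genes, 0 passed in the limma fit (6 higher and 1 lower at an unadjusted p below 0.05), with a median of 0.32. Reg3g read 10.62, 12.15 and 11.99 in wild type and 11.50, 13.27 and 12.99 in knockout, with overlap and an SE of 0.42 on the difference of 1.00. Reg3b, which may share probes with Reg3g, was also at 1.00 and Tifa at 0.85. Replicate 1 was the lowest in both genotypes here too. The granzyme gene Gzmb (0.73) and Cd7 (0.37) rose among 19 T cell genes (10.5%), and the immunoglobulin gene Igha (0.91) rose among 13 B and plasma cell genes (7.69%), against 3.83% of all genes called. In the MHC class II list of 9 genes the 1 rise was that of Ctss, also a lysosomal gene. The calls of Gzmb, Cd7, Igha and Ctss were lost in 4 or 5 leave-out fits.

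Transcripts of other tissues in the segment also differed between genotypes. All 13 smooth muscle genes lay below 0 and 3 fell (Myh11 -0.31, Myl9 -0.30 and Tpm2 -0.30), with a median of -0.21. The mean of that list was 10.60, 10.62 and 10.71 in wild type and 10.45, 10.32 and 10.51 in knockout, without overlap. Of 14 fibroblast and matrix genes, Col6a1 (-0.29) and Col6a2 (-0.30) fell and the median was -0.24, with a list mean of 10.31 to 10.34 in wild type and 10.07 to 10.17 in knockout. These 5 calls were each lost in 2 to 6 leave-out fits. When the mean of the muscle list was added to the model, 112 genes passed in place of 764, and 99 of them were among the 764. Because that mean separated the genotypes at day 15, this fit cannot fully tell muscle level from genotype. Of the 40 largest changes, 12 lost their call in that fit, namely Ifi205, Gml, Slc5a12, Ppef1, Apol10a, Ang4, C8b, Kcnt2, Cyp3a16, Cyp2c55, Tmed11 and Aqp8. Their differences in that fit were at 65.9% to 121% of their log2 size without the muscle mean, and 5 of the 12 were at least as large, among them Gml (1.83) and Aqp8 (-1.34). Calls were left for 5 of 8 brush-border peptidases, 5 of 7 Paneth cell genes, 3 of 6 endocytosis genes and 3 of 8 hormone and granule genes.

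Of 14 stomach and Brunner gland genes, 4 fell and 0 rose, with a median of -0.46. Beside Cym these were Tff2 (-0.53), Gkn3 (-0.62) and Muc6 (-0.67), a mucin of Brunner glands, which lie in the duodenal wall next to the stomach. The pepsinogen gene Pgc was at -0.90 and did not pass. The list mean was 9.86, 9.76 and 9.70 in wild type and 9.71, 9.25 and 9.19 in knockout, so that knockout replicate 1 fell within the wild type range. With this mean as a covariate 235 genes passed. The 18 pancreatic acinar genes had a median of -0.33, or 0.27 with the muscle mean in the model. They went both ways, with 13 below 0 and 5 above. In the limma fit 7 were lower and 3 higher at an unadjusted p below 0.05. Prss3 was the 1 that was called, and the digestive enzyme genes Cela1 (-1.06) and Ctrl (-0.89) were not. The mean of all 18 acinar genes lay between 11.96 and 12.06 in wild type and was 11.89, 11.54 and 12.12 in knockout, with overlap. The covariate was not this mean but that of the list without Prss3, and 413 genes passed with it in the model. How much of the other changes in the segment came with these tissues was not tested gene by gene beyond those covariates.

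Of 14 genes of enteric neurons and glia, the neurotrophic receptor gene Ret rose and S100b fell. Ret read 8.17, 8.40 and 8.30 in wild type and 9.31, 9.47 and 9.56 in knockout (1.15, SE 0.13, limma adjusted p = 1.9e-04). S100b read 7.80, 8.13 and 8.24 against 6.35, 6.37 and 6.36. The glial factor gene Sox10 read 7.41, 7.38 and 7.35 against 7.60, 7.33 and 7.21, with no difference in the mean to 2 decimals. Of 9 liver genes, Afp fell, and albumin (Alb) was dim in both genotypes, at 5.79 and 5.53. Of 7 adipocyte genes and 2 red blood cell genes 0 passed in the limma fit (1 adipocyte gene higher at an unadjusted p below 0.05), with medians of -0.01 and 0.02.

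**Figure D4:**
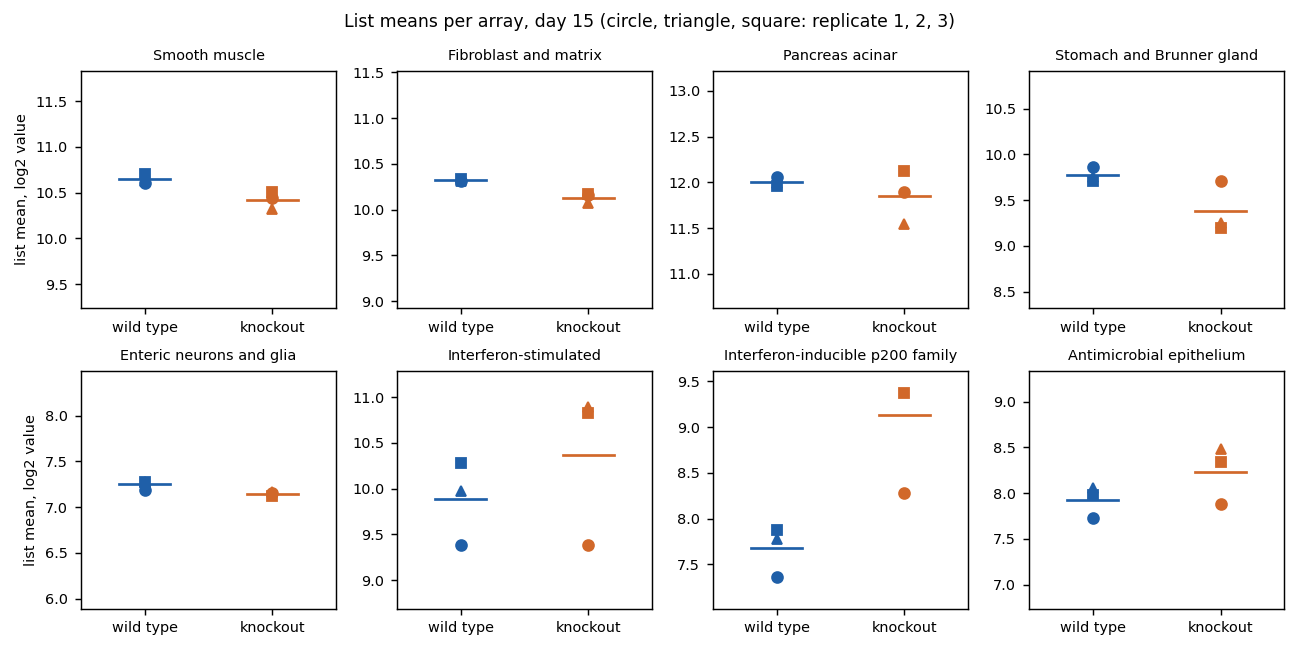
Mean log2 value of each of 8 gene lists on each day 15 array (y axis, spanning the same number of log2 units in every plot), wild type blue, knockout orange, with replicates 1, 2 and 3 as circle, triangle and square and lines for group means. The smooth muscle and fibroblast lists lie lower on all knockout arrays, and in the interferon list replicate 1 is the lowest of each genotype, at 9.38 in both.

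The genotype effects at day 15 and day 30 share no arrays, and the fit tested their difference. Of 764 genes called at day 15, 187 (24.5%) were also called in the same direction at day 30 and 2 in the opposite direction, where 395 of 19938 genes (1.98%) were called in all. The difference between ages itself passed for 91 genes (0.456%), of which 62 were among the 764 (8.12%). In 30 of those 62 the effect had the same sign at both ages and was larger at day 15, in 4 it was smaller, and in 28 the signs were opposite. Signs were compared whatever the size of the effect, so the 28 include day 30 effects near 0, such as Meltf at -0.08. Since the 62 genes were chosen by their call at day 15, which favours larger effects at that age, this split is a description.

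Falls of Tmprss15, Afp, Nat8f2 and Wdr72 and rises of Naaladl1, Guca2a, Gml and Pla2g2a were present at both ages. For Tmprss15 the difference was -4.25 at day 15 and -4.02 at day 30 (limma adjusted p of the difference between ages = 0.94), and for Guca2a it was 1.83 and 1.64 (0.80). Meltf was the clearest case of the opposite kind, at 3.48 at day 15 and -0.08 at day 30 (limma adjusted p of the difference between ages = 5.9e-07). Its knockout mean was 7.01 at day 30, and its wild type mean was 7.08. Mamdc4 (2.23 and -0.02), Folr1 (1.84 and 0.00), Aoc1 (1.43 and 0.05) and Ifi202b (2.77 and -0.16) followed the same pattern, with limma adjusted p of the difference between ages from 9.3e-05 to 0.0041. Wild type levels of Mamdc4 and Folr1 were 8.48 and 7.75 at day 15 and 6.72 and 6.47 at day 30.

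Among the falls, Abcb11 (-1.93 and 0.11), S100b (-1.70 and -0.05), Cym (-1.45 and 0.15), C8b (-1.57 and -0.04) and Penk (-1.32 and -0.04) were lower at day 15 and did not pass at day 30, and for each the difference between ages passed. Cyp4a10 was called at both ages (-3.55 and -0.82), and its wild type mean was 10.32 at day 15 and 6.73 at day 30. Otop3 was called at both and fell further at day 30 (-2.07 and -2.93). Gsdmc2 (0.89 and 2.54), Gsdmc4 (0.95 and 2.29) and the amino acid transporter gene Slc6a14 (0.14 and 1.69) had the larger effect at day 30. Of the 20 largest rises at day 15, 13 were called in the same direction at day 30 and 7 differed between ages, and of the 20 largest falls, 8 and 11.

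**Figure D5:**
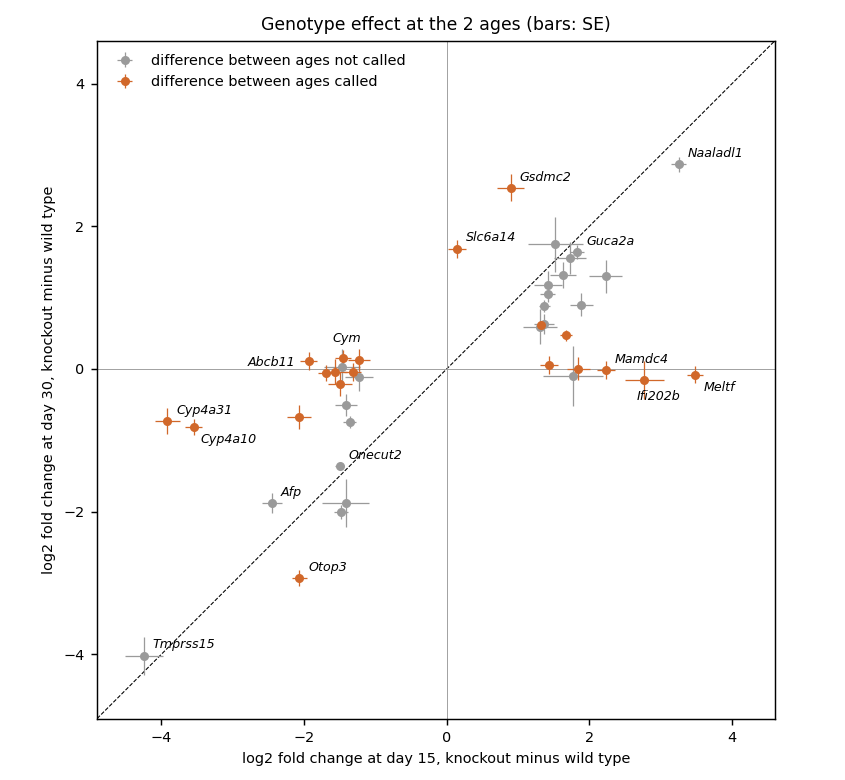
Log2 fold change of the named large changes at day 15 (x axis) against day 30 (y axis), with SE bars, orange where the difference between ages passed and a dashed line of equal effect. Tmprss15, Naaladl1 and Guca2a lie near the line, Meltf, Mamdc4 and Ifi202b lie near 0 at day 30, and Gsdmc2 and Slc6a14 lie above the line.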

How the data were processed

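For each array feature the file holds a log2 expression value, made by the authors with RMA (background correction, quantile normalization between arrays and summary of probes) in Affymetrix Expression Console version 1.1, per the submitters' processing notes. That the log base is 2 was taken from the method and the range of values. Quantile normalization removes a change shared by most genes. RNA was extracted with Trizol and 5.5 micrograms were labelled, per the labels' protocols.

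Of 35557 features, 21789 had exactly 1 gene symbol, 1621 several and 12147 none listed. Features with 1 symbol were used, the brightest over the 12 arrays for each of 999 genes with more than 1, which left 19938 genes. Entrez identifiers matched a RefSeq table of GRCm38.p6 for 21698 features, with 0 symbols updated and 0 columns of other samples present. No detection calls were used, so signal and background of dim genes are not separated, and the number of arrays limits the precision.

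Differences were tested with limma version 3.58.1 (R version 4.3.3) in a fit of 4 group means to 12 arrays with 8 residual degrees of freedom, Benjamini-Hochberg adjusted over all genes and called at 0.05. Named genes are Onecut2, Onecut1, Onecut3 and Ada, 20 genes with the greatest rise and 20 with the greatest fall, taken from calls without overlap between groups (without predicted loci and antigen receptor segments), the 12 called genes with the largest difference between ages, and members of 41 lists (588 of 667 entries measured). The members and lists were chosen with earlier results of these data known, and the list members named without a call were picked after their values had been seen. Lists are described by counts and medians, with no test. The leave-out fits drop 1 of the 6 day 15 arrays. Other alternatives were the moderation, filters, array weights, centring, the replicate block, and list means of other tissues as covariates. Prss3 was left out of the pancreas mean used as a covariate. The code was checked on simulated data.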

Additional observations from a re-analysis of the deposited data

Results flagged for a closer look

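The knockout effect differed between day 15 and day 30 by the limma test of that difference for 33 genes named in the text, all with a limma adjusted p below 0.05. The differences below are day 15 minus day 30 on the log2 scale.

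Effects more positive at day 15 were those of Meltf (3.56), Ifi202b (2.93), Mamdc4 (2.25), Folr1 (1.84), Aoc1 (1.38), Dab2 (0.94), Idi1 (0.49) and Sc5d (0.40), which rose at day 15 and had effects between -0.16 and 0.05 at day 30. The rise of Dab2 at day 15 is that of its brightest feature, and with its lowest-mean feature it was 0.04. Defa24 (1.197), Lyz1 (0.92), Itln1 (0.70) and Cyp4f14 (0.67) were more positive at day 15 with the same sign at both ages. For Otop3 (0.87) and Ces2a (1.26) the value is positive because the fall was deeper at day 30, and Ces2a did not pass at day 15.

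Effects more negative at day 15 were those of Cyp4a31 (-3.19), Cyp4a10 (-2.73), Abcb11 (-2.05), S100b (-1.64), Cym (-1.60), C8b (-1.53), Sult6b2 (-1.39), Apoc1 (-1.35), Kcnt2 (-1.28) and Penk (-1.28). In metabolism they were those of Mme (-0.74), Acadm (-0.74), Bdh1 (-0.57) and Ehhadh (-0.55), and Cyp4b1 (-1.52) was lower at day 15 and higher at day 30. Gsdmc2 (-1.64), Gsdmc4 (-1.34), Slc6a14 (-1.55) and Slc13a2 (-1.28) have negative values because their rises were larger at day 30, and Slc6a14 and Slc13a2 did not pass at day 15.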

How the results depend on the processing

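The 764 calls at day 15 became 480 from the 6 day 15 arrays alone, 1218 with array weights (495 higher, 723 lower), and 112, 413 and 235 with the smooth muscle, pancreas acinar and stomach means as covariates. Without 1 array at a time there were 340 to 741. With the intensity trend, robust moderation, no genes under the 25th percentile, the lowest-mean feature and centred arrays there were 1079, 759, 924, 712 and 719. The 91 differences between ages became 177 with the trend, 155 with weights, 33 with the smooth muscle mean, 57 with the stomach mean, and 47 to 123 without 1 array. Fewer samples enter the leave-out fits and the fit of the 6 day 15 arrays. The smooth muscle mean did not overlap between genotypes at day 15, so that fit cannot fully tell muscle level from genotype. The cause of the other shifts was not tested. The replicate block gave 611 calls at day 15 and 80 differences. Same-numbered wild type and knockout arrays at day 15 deviated together with r = 0.359, -0.00926 and 0.261. Wild type replicates 1 and 3 correlated best with the knockout array of their own number, and replicate 2 did not. The main fit did not take the numbers to pair the samples, and whether replicates share a factor was not tested beyond the block.

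Of 136 called genes named in the text or lists, 44 passed under each alternative and 86 passed whichever day 15 array was left out. Among the named genes, signs turned for 10, all uncalled. With the stomach mean, Neurog3 was at 0.0151, Sox10 at 0.178, Lrp2 at 0.0454, Mttp at -0.00813, Pdk4 at 0.0177, Ces2a at 0.0323, Cxcl10 at -0.575 and Ifit2 at -0.559. Neurog3 was at 0.0108 with array weights, 0.0748 with the smooth muscle mean and 0.00293 with the pancreas mean, Sox10 at 0.00332 with centred arrays and 0.0368 with the pancreas mean, and Fgf15 at -0.0152 with the smooth muscle mean. Without 1 array at a time Neurog3 ran from -0.136 to 0.00492, Sox10 from -0.109 to 0.0826, Lrp2 from -0.102 to 0.0148, Apob from -0.0379 to 0.00516 and Mttp from -0.00267 to 0.0288. Of list medians beyond 0.08 from 0, those of pancreas and P450 family 4 turned to 0.27 and 0.08 with the smooth muscle mean. That of interferon genes turned to -0.30 with the stomach mean. The stomach list was at 0.01 in that fit, which follows from adjusting it for its own mean. That of sugar genes turned to -0.01 and -0.00 without wild type replicate 3 or knockout replicate 1. Dim genes have the least signal over background, which limits their differences.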
